A study of Mus musculus with 4 samples.

Results

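The 8 genes described here encode the enzymes that doxorubicin acts on or near, the enzymes that remove trapped topoisomerases from DNA, and the membrane pumps known to carry the drug out of cells. They are the topoisomerase genes Top2a, Top2b and Top1, the tyrosyl-DNA phosphodiesterase genes Tdp1 and Tdp2, and the pump genes Abcb1a, Abcb1b and Abcc1. They were chosen by symbol for these known roles, and all 8 were found among the 32285 genes of each count matrix. Their levels were measured in live T cells sorted from lymph nodes that drain MC38-OVA tumours in mice, MC38 being a mouse colon adenocarcinoma line and OVA the ovalbumin it carries as a model antigen. The study placed 1 single-cell library in each of 4 groups. WT-CTRL held cells of mice with the control genotype and the control treatment, and WT-DOX cells of the control genotype after doxorubicin. KO-CTRL held cells of mice labelled as PD-L1 knockouts with the control treatment, and KO-DOX cells of such mice after doxorubicin. The knockout is stated to be conditional in dendritic cells, so the sorted T cells are not its stated target. The Cre driver, the age of the mice, the drug dose, the time between dose and sampling, and the number of mice in each library are not stated in the labels or in the study's design text. With 1 library per group, differences between groups have no replicate check.

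Type II topoisomerases cut both strands of DNA, pass another duplex through the gap and close it again, and doxorubicin traps the enzyme while the DNA is cut. Dividing cells rely on the alpha form (Top2a), which rises from S phase to mitosis and separates chromosomes, whereas the beta form (Top2b) is made in resting cells too. Top1 cuts 1 strand and relaxes DNA ahead of polymerases. Tdp2 removes trapped type II enzymes from DNA ends and Tdp1 removes trapped type I enzymes. Abcb1a and Abcb1b both encode P-glycoprotein in the mouse, and Abcc1 encodes multidrug resistance protein 1. All 3 pumps can export anthracyclines, the drug class of doxorubicin.

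The 4 libraries held 37754389 to 47081849 UMIs (unique molecular identifiers, each counted as 1 captured RNA molecule). Of 48597 barcodes, 47233 remained as T-like cells after filters on genes, mitochondrial reads and doublet score and after 2 clusters low in CD3 genes were set aside. The CD3 genes summed to 1162 to 2448 CPM (UMIs of a gene per 1000000 UMIs of all genes in the summed cells) across the T-like clusters, against 207 CPM in the B- or plasma-like cluster 16 and 162 CPM in cluster 17. Cluster 17 held 90 cells and stayed unnamed. The libraries kept 12498, 12019, 12634 and 10082 T-like cells in WT-CTRL, WT-DOX, KO-CTRL, then KO-DOX, with median depths of 2971 to 3051 UMIs. Among T-like cells, 1212 barcode sequences occurred in more than 1 library. Cd274, which encodes PD-L1, was at 67.0, 65.5, 83.6 and 82.6 CPM in the T-like cells of the 4 libraries in the same order. The deleted part of the gene is not given and T cells are not the stated target, so these levels do not check the genotype label.

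Cells were called cycling when at least 5 different genes from lists of 25 S phase and 34 G2/M genes had a UMI. None of the 8 genes was on those lists. WT-CTRL held 387 cycling cells, WT-DOX held 294, KO-CTRL held 434 and KO-DOX held 390, which is 3.10%, 2.45%, 3.44% and 3.87% of T-like cells. The threshold divides a continuous count: 1933 cells had 3 or 4 of these genes, 299 had 5 to 7, 155 had 8 to 11 and 1051 had 12 or more. Cycling cells were also deeper, with a median of 12460 UMIs against 2965 in other cells, and levels are therefore given as CPM. The gate counted genes without adjusting for depth, so deeper cells could reach 5 genes more easily. CPM does not undo that selection, and its part in the comparisons of cycling with non-cycling cells was not tested. CD4 cells had at least 1 Cd4 UMI and none of Cd8a or Cd8b1, and CD8 cells had at least 2 UMIs of Cd8a and Cd8b1 together and none of Cd4. These rules placed 17.3% of T-like cells as CD4 and 39.1% as CD8 and left 43.6% unassigned. The B cell gene Cd79a was at 0.28 to 0.51 CPM in the cycling T-like cells of the 4 libraries, against 1233 to 2031 CPM in cluster 16.

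**Figure D1:**
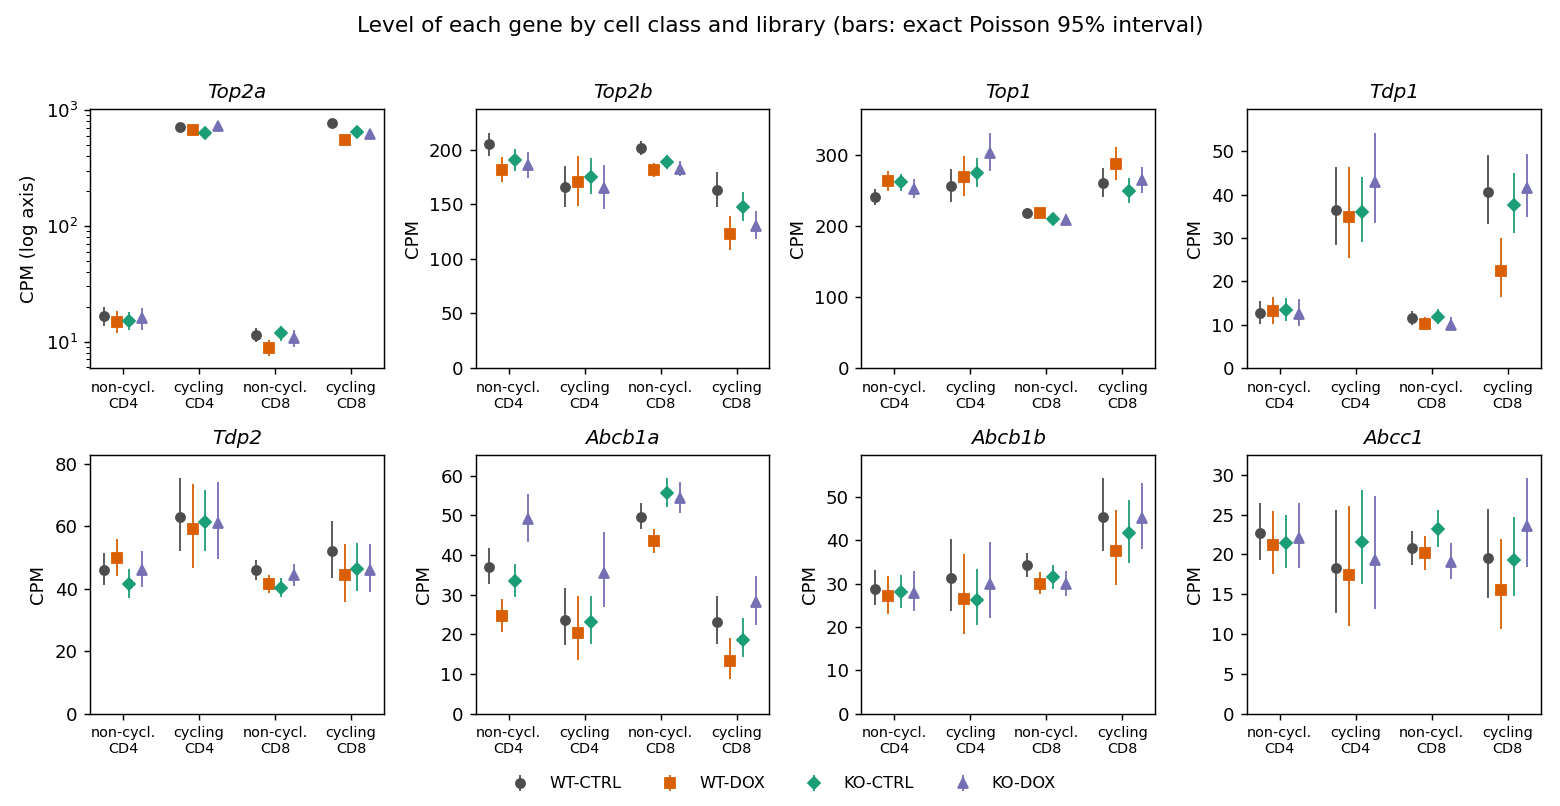
Level of each of the 8 genes (CPM, on a logarithmic axis for Top2a and a linear one from 0 for the others) in non-cycling and cycling CD4 and CD8 cells, with 1 point for each of the 4 libraries and bars for the exact Poisson 95% interval of the counts. Top2a and Tdp1 stand higher in the cycling classes, and Abcb1a stands lower in cycling than in non-cycling CD8 cells.

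Top2a, the alpha form of type II topoisomerase, was found mainly in cycling cells. In cycling CD4 cells it was at 712, 672, 634 and 723 CPM in WT-CTRL, WT-DOX, KO-CTRL, then KO-DOX, and in non-cycling CD4 cells at 16.6, 14.9, 15.1 and 15.8 CPM. In cycling CD8 cells it was at 773, 551, 647 and 620 CPM, against 11.3, 8.78, 11.8 and 10.6 CPM in non-cycling CD8 cells. The lowest cycling value was far above the highest non-cycling value in both lineages. The classes were formed from other genes of the cell cycle, in which Top2a rises, so its higher level was built in. The p-values that follow add no separate support for it. Taking the 4 libraries as replicates, each of another condition and each its own block, the difference was 5.46 ± 0.07 (log2 fold ± SE) in CD4 cells (edgeR, adjusted p = 4.13e-22) and 5.97 ± 0.07 in CD8 cells (adjusted p = 2.41e-23). Cycling cells are deeper and differ in most genes: 67.7% of the 10344 genes tested in CD4 cells and 72.9% of the 11142 tested in CD8 cells passed the same threshold of 0.05. Of the 8 genes, 5 passed in CD4 cells (3 higher and 2 lower) and 7 in CD8 cells (5 higher and 2 lower), so the number called says little about these genes as a set. Their median log2 fold was 0.08 in CD4 cells, where the median of all genes tested was -0.02, and 0.27 in CD8 cells, where it was -0.05.

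Cycling cells gave 88.8%, 86.9%, 91.0% and 91.0% of all Top2a UMIs of T-like cells in WT-CTRL, WT-DOX, KO-CTRL, then KO-DOX. The same cells gave 13.2%, 10.7%, 15.7% and 16.2% of the UMIs of all genes. Top2a rose along the count of cycle genes: it was at 10.3 CPM in cells with none of them, 19.2 CPM with 3 or 4, 42.9 CPM with 5 to 7, 81.9 CPM with 8 to 11 and 749 CPM with 12 or more. Most of the signal therefore lay in the 1051 cells farthest past the threshold, and the cells just inside and just outside it differed by much less. In cycling cells with fewer than 3 G2/M genes it was at 41.8, 45.3, 39.6 and 47.9 CPM in the 4 libraries, and in those with 3 or more at 803, 687, 740 and 723 CPM. All non-cycling cells together were at 10.6 to 13.7 CPM, so the S range lay above them without overlap and the G2/M range far above both.

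Single cycling cells differed widely. The median over cycling cells was 369, 221, 255 and 382 CPM in WT-CTRL, WT-DOX, KO-CTRL, then KO-DOX, the 10th percentile was 0 in each library, and the 90th percentile was 1783, 1384, 1619 and 1436 CPM. A Top2a UMI was present in 71.9% of cycling and 3.42% of non-cycling T-like cells over all libraries. After every cell was thinned to 1500 UMIs, it was present in 597 of 1429 cycling cells (41.8%) and in 685 of 41084 non-cycling cells (1.67%). The low level outside cycling cells did not keep the ratio seen over all cycling cells. Cycling cells held 1.21 to 1.33 Top2a UMIs for each UMI of the proliferation marker Mki67 across the libraries, and non-cycling cells 2.497 to 4.59. Within the cycling cells, the S range alone held 2.14, 3.2, 1.14 and 2.125 in the same library order, overlapping the non-cycling cells. Those S range ratios rested on 10 to 29 Mki67 UMIs per library. What the non-cycling counts come from, cells early in the cycle, other cells or free RNA, was not tested.

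**Figure D2:**
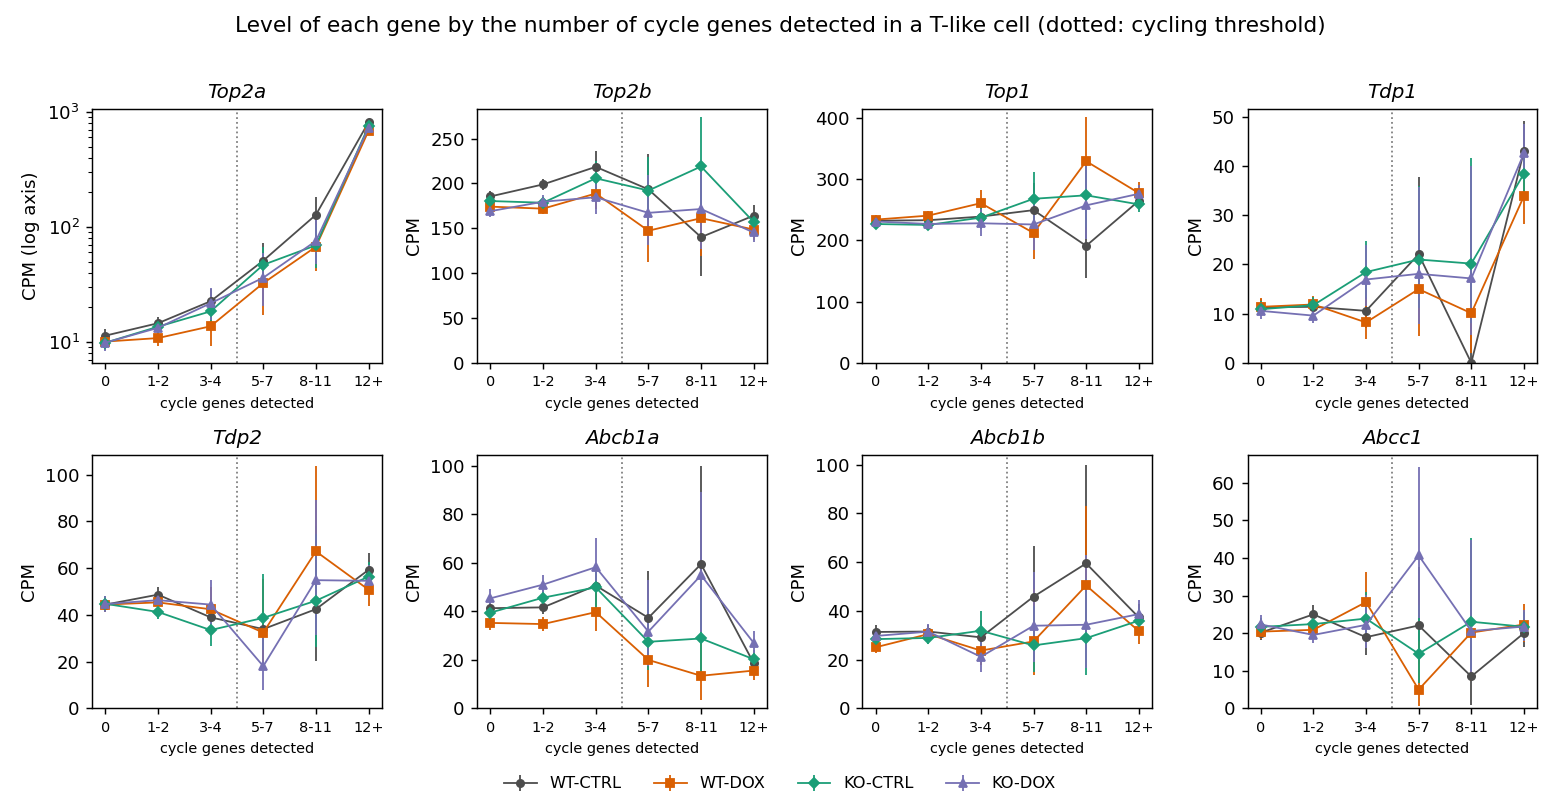
Level of the 8 genes (CPM, on a logarithmic axis for Top2a) in T-like cells binned by how many different cycle genes had a UMI, with 1 line per library and bars for exact Poisson 95% intervals. Over all libraries Top2a goes from 10.3 CPM in the first bin to 749 CPM in the last and Tdp1 from 11.1 to 39.8 CPM, whereas Abcb1a goes from 40.1 to 20.7 CPM.

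The Top2a gene (ENSMUSG00000020914) lies at chr11:98992943-99024189 on the minus strand and Top2b (ENSMUSG00000017485) at chr14:16365179-16435462 on the plus strand of mm10. The 250 bases before each RefSeq start are shown because these genes encode the pair of type II enzymes and moved in opposite directions with the cell cycle. The sequences come from RefSeq (GRCm38.p6) and are read 5′ to 3′ on the gene's strand, from chr11:99024190-99024439 (minus strand) for Top2a and chr14:16364956-16365205 (plus strand) for Top2b. The Top2b window runs 27 bases past the start of the gene given above, which is GENCODE's. Capitals mark CCAAT, the box bound by NF-Y, TTTGAA, a core of the cell cycle homology region, and GGGCGG, the GC box, on either strand, none overlapping another.
Top2a: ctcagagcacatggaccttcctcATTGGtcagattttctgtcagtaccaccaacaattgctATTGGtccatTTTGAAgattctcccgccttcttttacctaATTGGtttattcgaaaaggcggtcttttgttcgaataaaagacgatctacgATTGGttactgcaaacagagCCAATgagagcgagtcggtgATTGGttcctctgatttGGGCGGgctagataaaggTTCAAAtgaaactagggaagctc
Top2b: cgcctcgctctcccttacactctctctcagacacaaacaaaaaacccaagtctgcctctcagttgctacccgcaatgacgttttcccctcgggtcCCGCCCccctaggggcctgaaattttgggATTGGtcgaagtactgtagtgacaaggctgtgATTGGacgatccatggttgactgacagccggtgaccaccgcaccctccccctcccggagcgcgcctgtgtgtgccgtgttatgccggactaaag

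The Top2a window held 6 CCAAT boxes, 1 on the gene's strand and 5 on the other, and 2 copies of TTTGAA. The Top2b window held 2 CCAAT boxes, both on the other strand, and no TTTGAA. Among 32851 promoter windows of this length, 33.8% held a CCAAT box, 10.1% held 2 or more and 19 windows (0.0578%) held 6 or more. TTTGAA occurred in 15.99% of the windows and GGGCGG, present once in both genes, in 32.7%. Neither window held the E2F-type words TTTCCCGC and TTTGGCGC, which occurred in 0.895% and 0.417% of all windows. These are matches of letters, and no binding was measured.

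Top2b, the beta form made in resting cells, was lower in cycling cells. In non-cycling CD8 cells it was at 201, 181, 189 and 182 CPM in WT-CTRL, WT-DOX, KO-CTRL, then KO-DOX, and in cycling CD8 cells at 163, 123, 148 and 131 CPM. Every cycling CD8 value was below every non-cycling one. The difference was -0.38 ± 0.06 (log2 fold ± SE, edgeR, adjusted p = 1.14e-05). In CD4 cells the levels were 205, 182, 190 and 186 CPM outside the cycle and 166, 170, 175 and 165 CPM in it, again without overlap. There the fold was -0.16 ± 0.06 (adjusted p = 0.0238), a call lost without WT-CTRL (adjusted p = 0.144), with DESeq2 (0.0908) and with cycling called from at least 3 genes, where the fold was -0.07 (adjusted p = 0.240). Across clusters, Top2b was highest in cluster 18, led by Il17a and Il23r, at 251 CPM and in the gamma delta T-like cluster 13 at 243 CPM, as means over the libraries. It was lowest in cluster 9, led by Ccl5 and Klra7, at 117 ± 6 CPM (SD, n = 4 libraries). On the opposite strand, Gm48163 overlaps 1090 bases of Top2b and the protein-coding gene Rarb overlaps 4624. Whether counting used strand is not given.

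Top1, the single-strand cutting enzyme, was higher in cycling CD8 cells and lay near the threshold in CD4 cells. In CD8 cells it was at 218, 218, 210 and 208 CPM outside the cycle and at 260, 287, 250 and 264 CPM in it, in WT-CTRL, WT-DOX, KO-CTRL, then KO-DOX. The 2 sets did not overlap, and the log2 fold was 0.35 ± 0.05 (edgeR, adjusted p = 7.41e-06). In CD4 cells it was at 240, 263, 261 and 252 CPM outside the cycle and 256, 269, 274 and 303 CPM in it. These sets overlapped, and the fold was 0.13 ± 0.06 with an adjusted p of 0.0577. The call was gained in 4 of 14 alternatives: without WT-DOX (adjusted p = 0.0444), with cycling called from at least 3 genes (0.0219), with cycling called by cluster (0.0368) and with doublets kept (0.0496). Top1 (ENSMUSG00000070544) lies at chr2:160645888-160722764 on the plus strand. Among T-like clusters it was highest in the Tfh-like cluster 5, at 320 CPM.

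Tdp1, which frees DNA from trapped type I topoisomerase, was raised in cycling cells of both lineages. Outside the cycle it was at 12.6, 13.1, 13.3 and 12.5 CPM in CD4 cells and 11.4, 10.2, 11.8 and 10.02 CPM in CD8 cells of WT-CTRL, WT-DOX, KO-CTRL, then KO-DOX. In cycling cells it was at 36.6, 34.8, 35.9 and 42.9 CPM in CD4 and 40.6, 22.4, 37.5 and 41.6 CPM in CD8 cells. The cycling CD8 cells of WT-DOX stood below the other 3 libraries but still above every non-cycling value. The log2 fold was 1.55 ± 0.13 in CD4 cells (edgeR, adjusted p = 2.76e-09) and 1.76 ± 0.12 in CD8 cells (adjusted p = 7.78e-11). Cycling cells gave 34.7%, 24.4%, 36.4% and 42.0% of all Tdp1 UMIs, between the shares for Top2a and for all genes. By cluster, Tdp1 was at 41.1 ± 3.5 CPM (SD, n = 4 libraries) in the cycling-like cluster 15, and the next cluster, cluster 0, reached 17.2 CPM without overlap between libraries. Tdp1 (ENSMUSG00000021177) lies at chr12:99884517-99955219 on the plus strand.

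Tdp2, which frees DNA from trapped type II topoisomerase, changed less with the cycle than Tdp1. In CD4 cells it was at 46.1, 49.7, 41.4 and 46.0 CPM outside the cycle and at 62.9, 59.0, 61.3 and 60.9 CPM in it, without overlap. That fold was 0.44 ± 0.09 (log2 ± SE, edgeR, adjusted p = 2.96e-04). In CD8 cells it was at 46.0, 41.4, 40.3 and 44.2 CPM outside the cycle and 51.9, 44.3, 46.4 and 46.1 CPM in it, with overlap. The CD8 fold was 0.18 ± 0.08 with an adjusted p of 0.0498, and the call was lost in 11 of 14 alternatives, among them the omission of any 1 library (adjusted p = 0.0597 to 0.195). Tdp2 (ENSMUSG00000035958) lies at chr13:24831679-24842153 on the plus strand.

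**Figure D3:**
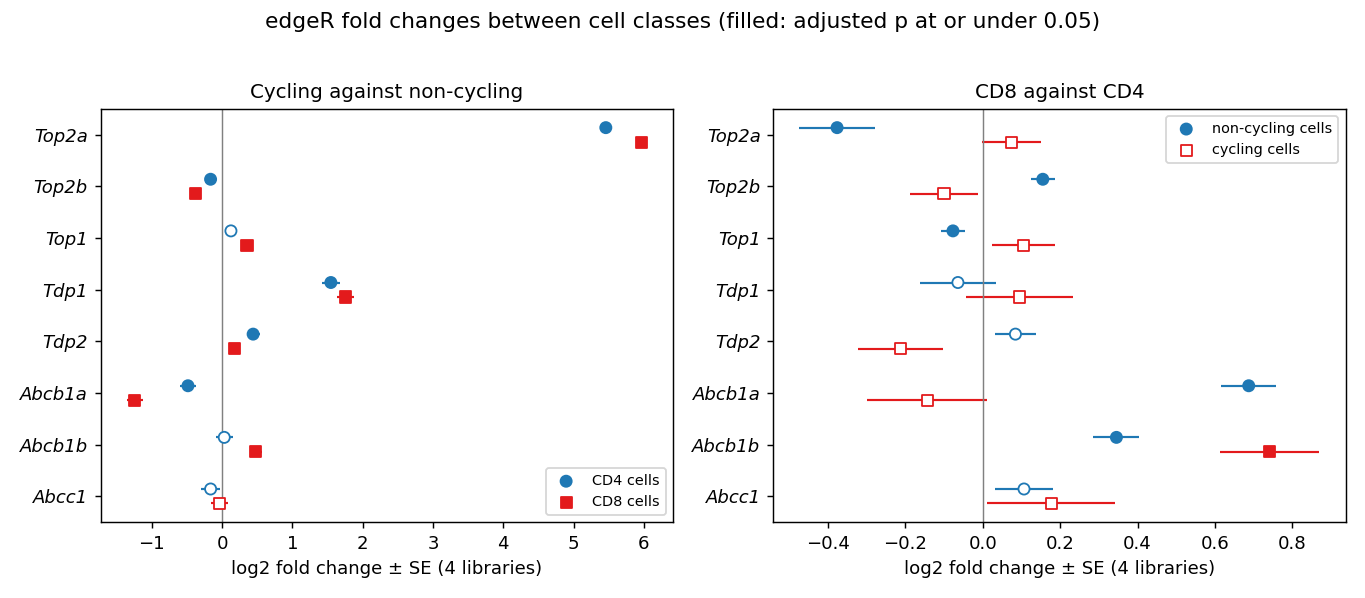
Log2 fold of each of the 8 genes (points, filled at an adjusted p of 0.05 or less) with its SE (bars) between cycling and non-cycling cells and between CD8 and CD4 cells, fitted over 4 libraries with the library as a block. Top2a and Tdp1 lie above 0 in both cycling comparisons, Abcb1a lies below 0 in both, and Abcb1a and Abcb1b lie above 0 for CD8 against CD4 cells outside the cycle.

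Other genes of these pathways, on 4 lists, were tested in the same fits. The classes were formed from cell cycle genes, so a higher level of any listed gene that rises in the cycle was built in, as for Top2a. Of the other topoisomerases and their partners, 4 of 6 measured genes were higher and 1 lower in cycling CD4 cells, with a median log2 fold of 0.54. The largest folds were 3.12 for Rmi2 and 1.44 for Topbp1, and Top3b was lower at -0.43. In cycling CD8 cells 4 of 7 were higher, again led by Rmi2 (2.14) and Topbp1 (1.30), and Spo11 (-1.48) and Top3b (-0.51) were lower. Of the genes that repair breaks left by topoisomerases, 8 of 17 were higher and 1 lower in cycling CD4 cells, and 10 of 18 were higher and 5 lower in CD8 cells. Brca1, a homologous recombination gene, was highest in both lineages (4.42 and 4.24), followed by the end-joining gene Xrcc6 in CD4 cells (1.45) and the poly-ADP-ribose polymerase gene Parp1 in CD8 cells (1.32). The end-joining gene Xrcc4 was lower in both (-0.65 and -0.79), and Zfp451, a SUMO ligase gene that assists Tdp2, was lower in CD8 cells (-0.58). The median of all genes tested was -0.02 in CD4 and -0.05 in CD8 cells, and among all genes 34% were higher and 33.7% lower in CD4 and 36.1% higher and 36.8% lower in CD8 cells.

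The lists of transporters and drug metabolism held calls in both directions. Of 8 other efflux and transport genes measured, 1 was higher and 3 were lower in cycling CD4 cells, the latter led by Abcc10 (-1.13) and Abcc5 (-1.07). In CD8 cells 3 of 9 were higher, led by the mitochondrial transporter genes Abcb10 (1.54) and Abcb8 (1.07), and 2 were lower, Abcc10 (-1.53) and Abcc5 (-0.60). Of the anthracycline metabolism genes, 5 of 12 were higher and 3 lower in CD4 cells, and 6 of 14 were higher and 1 lower in CD8 cells. Gclm, the modifier subunit of the first enzyme of glutathione synthesis, was higher in both lineages (1.22 and 1.35), and its catalytic subunit Gclc was lower in both (-0.53 and -0.998). Nqo2, a quinone reductase gene, was higher in CD8 cells (2.43), Akr1a1, an aldo-keto reductase gene, was higher in CD4 cells (0.65) and Cbr1, a carbonyl reductase gene, was lower there (-0.31).

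Abcb1a, 1 of the 2 P-glycoprotein genes, moved against the cycle. In non-cycling CD8 cells it was at 49.7, 43.5, 55.7 and 54.5 CPM in WT-CTRL, WT-DOX, KO-CTRL, then KO-DOX, and in cycling CD8 cells at 23.0, 13.1, 18.6 and 28.0 CPM. The ranges were far apart, and the log2 fold was -1.24 ± 0.11 (edgeR, adjusted p = 4.27e-09). In non-cycling CD4 cells it was at 37.0, 24.5, 33.5 and 49.1 CPM, and in cycling CD4 cells at 23.7, 20.4, 23.1 and 35.4 CPM. Those ranges overlapped, but each library was lower in its cycling cells, with a fold of -0.49 ± 0.12 (adjusted p = 0.00133). With cycling called from at least 3 genes the fold was -0.24 and the call was lost (adjusted p = 0.0678). Cycling cells gave 7.43%, 5.13%, 8.45% and 10.2% of all Abcb1a UMIs, below their share of the UMIs of all genes in every library.

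Abcb1b, the other P-glycoprotein gene, did not follow Abcb1a. In CD8 cells it was at 34.3, 29.97, 31.5 and 29.997 CPM outside the cycle and at 45.3, 37.5, 41.6 and 45.1 CPM in it, in WT-CTRL, WT-DOX, KO-CTRL, then KO-DOX, without overlap. The log2 fold was 0.48 ± 0.09 (edgeR, adjusted p = 5.91e-05). In CD4 cells it was at 28.8, 27.0, 28.0 and 27.9 CPM outside the cycle and 31.2, 26.5, 26.2 and 29.8 CPM in it, and the test was not passed (0.03, adjusted p = 0.836). Abcc1 passed in neither lineage: it was at 22.7, 21.2, 21.4 and 22.1 CPM in non-cycling and 18.3, 17.4, 21.6 and 19.3 CPM in cycling CD4 cells, and at 20.8, 20.1, 23.1 and 19.1 CPM in non-cycling and 19.5, 15.6, 19.2 and 23.5 CPM in cycling CD8 cells. Its folds were -0.16 (adjusted p = 0.304) and -0.04 (adjusted p = 0.795).

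Abcb1a (ENSMUSG00000040584) and Abcb1b (ENSMUSG00000028970) are neighbours on the plus strand, at chr5:8660077-8748575 and chr5:8798147-8866315, and Abcc1 (ENSMUSG00000023088) lies at chr16:14361558-14475737. The coding sequences of Abcb1a and Abcb1b shared 88.2% of 3816 aligned bases, and 85.0% over the first 500. The division of reads between them can depend on how the authors' counting treated reads that fit both, which neither the labels nor the files state. How many reads fit both was not tested. Top2a and Top2b shared 72.4%. Abcb1a overlaps Gm42684 on the same strand over 3615 bases and Gm42686 on the opposite strand over 4108 bases. Abcb1b overlaps Gm5106 on the opposite strand over 377 bases at its start and 7330423F06Rik on the same strand over 301 bases.

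Among T-like clusters, Abcb1a was highest in cluster 9, led by Ccl5 and Klra7, at 80.4 ± 8.0 CPM (SD, n = 4 libraries). The Treg-like cluster 12 followed at 78.5 CPM, then the gamma delta T-like cluster 13 at 76.7 CPM and the Tfh-like cluster 5 at 68.3 CPM, and these leading clusters overlapped between libraries. It was lowest in clusters 7, 1 and 14, which all had Igfbp4 and Pdlim4 among their leading genes, at 14.2, 14.9 and 15.5 CPM, and stood at 20.2 CPM in the cycling-like cluster 15. Abcb1b had another order: cluster 18 was highest at 64.2 CPM, cluster 9 stood at 47.8 CPM, the effector or memory CD8-like cluster 8 at 45.2 CPM and the Tfh-like cluster at 41.8 CPM. The Treg-like cluster, second for Abcb1a, was lowest for Abcb1b at 18.7 CPM. Abcc1 was highest at 47.7 CPM in cluster 0, which had mitochondrial genes among its leading genes and a median of 846 UMIs per cell. Clusters were formed without the 8 genes, and their levels by cluster are a description.

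**Figure D4:**
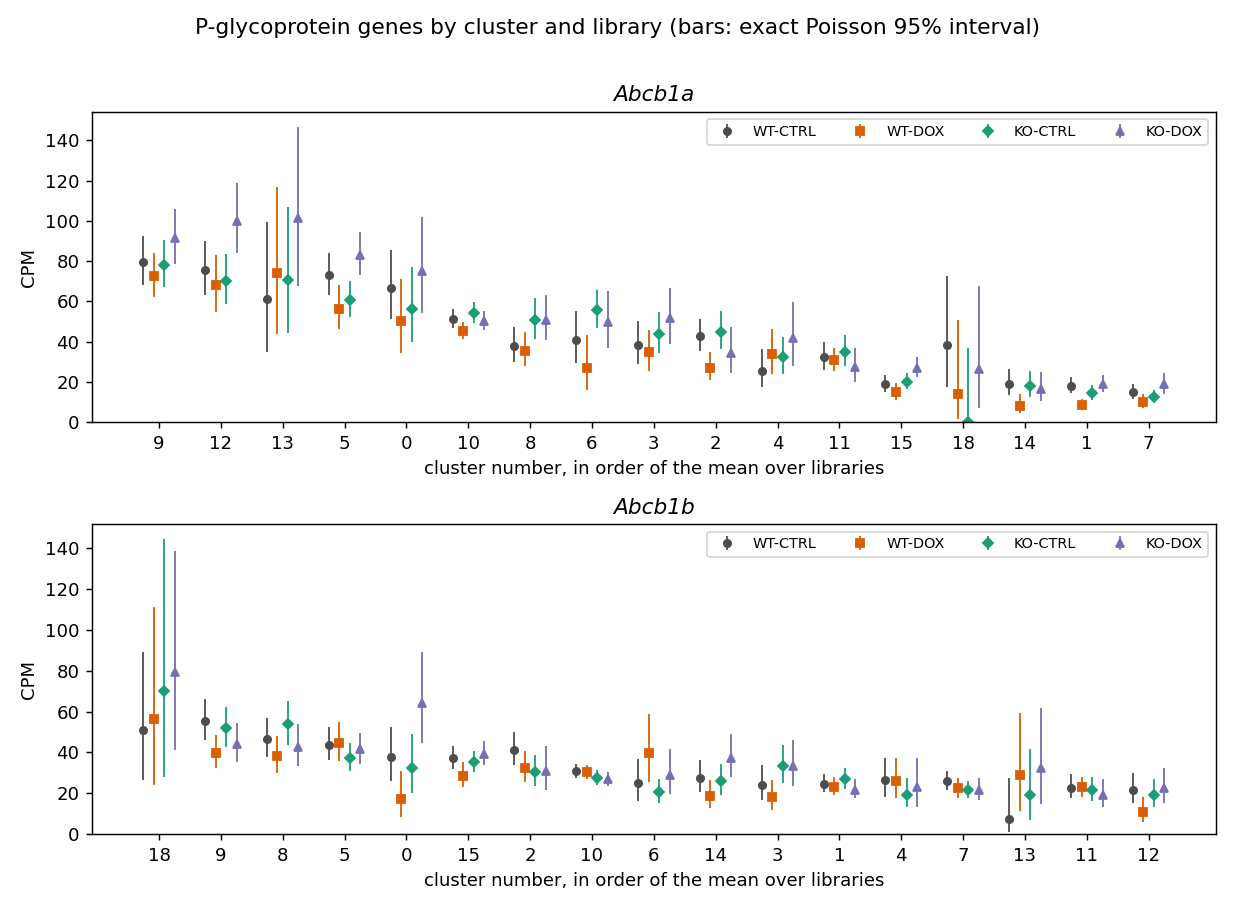
Levels of Abcb1a and Abcb1b (CPM) in each T-like cluster, ordered by the mean over libraries, with 1 point per library and bars for exact Poisson 95% intervals. By that mean, cluster 9 and the Treg-like cluster 12 lead for Abcb1a, and cluster 12 is the lowest for Abcb1b, with overlap between libraries at each of these ends.

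Outside the cycle, both P-glycoprotein genes were higher in CD8 than in CD4 cells. The log2 fold of CD8 against CD4 cells was 0.69 ± 0.07 for Abcb1a (edgeR, adjusted p = 8.38e-09) and 0.35 ± 0.06 for Abcb1b (adjusted p = 2.43e-05), higher in 4 of 4 libraries for both genes. Top2a was lower in non-cycling CD8 cells (-0.38 ± 0.10, adjusted p = 0.00219), and each library showed that direction, though with DESeq2 the adjusted p was 0.0545. In all 5 of the 8 genes passed, where 49.4% of the 11490 genes tested did. The other 2, Top2b (0.15 ± 0.03, adjusted p = 1.78e-04) and Top1 (-0.08 ± 0.03, adjusted p = 0.0443), were small. Top1 lost its call in 10 of 14 alternatives and Top2b in 2. Scaling to library totals instead of TMM moved the median of all genes by -0.17 log2 units and the share of higher among called genes from 49.3% to 19.5%, and the fold of Top2b became -0.017 (adjusted p = 0.642). In cycling cells 1 of the 8 passed, Abcb1b at 0.74 ± 0.13 (adjusted p = 2.27e-04), where 24.6% of 9313 genes did. There the same change of scaling moved the median by -0.16 and the share of higher calls from 49.5% to 21.6%.

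The test of the difference between the cycling effects of the 2 lineages was passed by 4 of the 8 genes, where 13.3% of 10834 genes passed. The cycling effect was larger in CD8 than in CD4 cells by 0.52 ± 0.12 log2 units for Top2a (edgeR, adjusted p = 0.00312), by 0.47 ± 0.12 for Abcb1b (adjusted p = 0.0102) and by 0.25 ± 0.08 for Top1 (adjusted p = 0.0377). The fall of Abcb1a was deeper in CD8 cells by -0.75 ± 0.20 (adjusted p = 0.0116). Of 14 alternatives, 2 lost the call for Top2a, 5 for Abcb1a, 8 for Abcb1b and 12 for Top1. It was lost for Top2a without WT-CTRL (adjusted p = 0.133), for Abcb1a without WT-DOX or KO-CTRL, for Abcb1b without WT-CTRL, KO-CTRL or KO-DOX and for Top1 without any of the 4 libraries. The lineages differed in Top2a at the non-cycling end, at 14.9 to 16.6 CPM in CD4 and 8.78 to 11.8 CPM in CD8 cells. Cycling CD4 and CD8 cells overlapped. Mki67 was also lower in non-cycling CD8 cells, at most 2.76 CPM against at least 4.90 CPM in non-cycling CD4 cells. These Mki67 levels rested on 18 to 44 UMIs per library and class. Non-cycling CD4 cells held 1.91 to 3.04 Top2a UMIs for each Mki67 UMI against 3.85 to 8.78 in non-cycling CD8 cells. The higher ratio in CD8 cells is thus not a higher Top2a level.

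The doxorubicin comparisons set 1 library against another. A gene was called past the fold when its log2 fold of CPM + 1 was at least 0.32 in size and the exact 95% interval of the ratio left out 1, an interval that covers counting error only. In all T-like cells 1 of the 8 genes passed between WT-DOX and WT-CTRL, where 3.92% of the 9027 genes compared did (3.28% lower), and none passed between KO-DOX and KO-CTRL, where 1.63% of 9038 did. The gene was Top2a, at 106 CPM in WT-CTRL, 72.2 CPM in WT-DOX and 114 CPM in both KO-CTRL and KO-DOX. WT-DOX stood apart as the lowest, with a log2 fold of -0.55 against WT-CTRL and a ratio of 0.681 (95% interval 0.650 to 0.713). The share of cycling cells differed in the same direction, with a ratio of 0.790 (0.680 to 0.917) between WT-DOX and WT-CTRL and 1.13 (0.985 to 1.29) between KO-DOX and KO-CTRL. With the proportions of lineage and cycling classes held equal the Top2a log2 fold was -0.29, short of the size required. In non-cycling cells alone it was -0.34, and with the same weight for each cell it was -0.71, and both were past the fold.

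**Figure D5:**
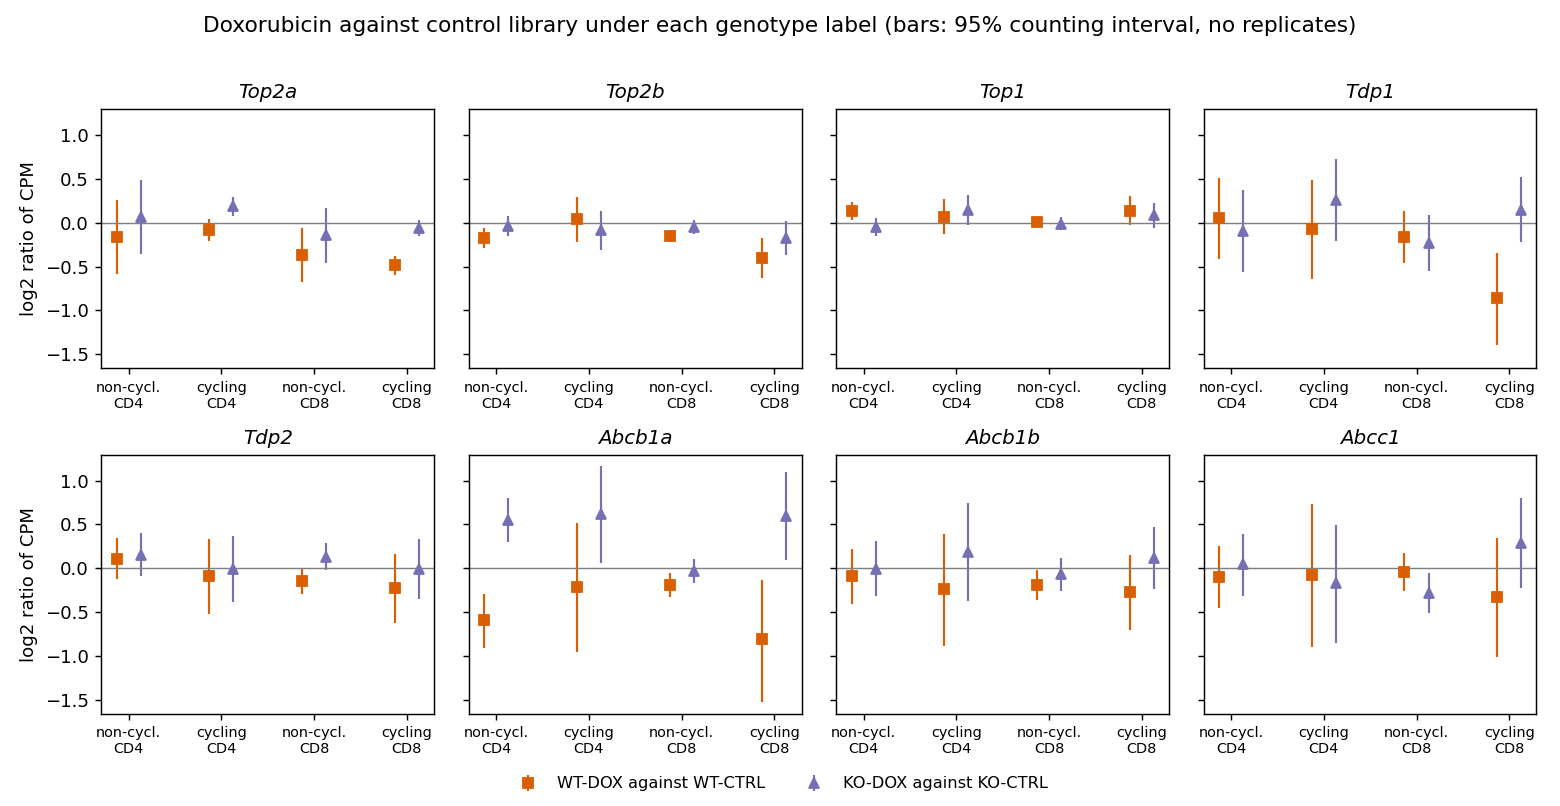
Log2 ratio of CPM for the 8 genes between doxorubicin and control libraries of each genotype label, by cell class, with exact 95% intervals of the ratio (bars, counting error only). Abcb1a lies below 0 for the control genotype and above 0 for the knockout label in non-cycling CD4, cycling CD4 and cycling CD8 cells.

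Within cell classes, Abcb1a differed most often. In non-cycling CD4 cells, at the levels given above, it was lower in WT-DOX than in WT-CTRL (ratio 0.662, 95% interval 0.534 to 0.818) and higher in KO-DOX than in KO-CTRL (1.46, 1.23 to 1.75). It was the only 1 of the 8 to pass in either comparison, where 6.08% and 5.73% of all genes passed. In cycling cells of all lineages the Abcb1a ratios were 0.716 (0.528 to 0.964) and 1.35 (1.077 to 1.69), where 10.3% and 5.64% of genes passed, and Tdp1 passed there as well between WT-DOX and WT-CTRL at a log2 fold of -0.35. In non-cycling CD8 cells they were 0.876 and 0.978, and neither passed. Whether the 2 genotype labels differ in this response could not be tested with 1 library in each group.

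The makeup of the CD4 cells moved as well. The Tfh-like cluster 5, high in Abcb1a, made up 16.1%, 14.6%, 17.5% and 22.7% of non-cycling CD4 cells in WT-CTRL, WT-DOX, KO-CTRL, then KO-DOX, and the Treg-like cluster 12 made up 6.64%, 7.01%, 7.41% and 7.58%. Within the Tfh-like cluster Abcb1a was at 73.0, 56.4, 60.7 and 83.3 CPM, and within the Treg-like cluster at 75.7, 67.9, 70.3 and 100.1 CPM. In cluster 1 it was at 18.1, 8.41, 14.4 and 18.8 CPM and in cluster 7 at 14.98, 10.2, 12.6 and 18.8 CPM. These cluster levels cover every cell of a cluster, whatever its lineage or cycle class, whereas the shares are of non-cycling CD4 cells only. In each of these 4 clusters WT-DOX was the lowest library and KO-DOX the highest, as among non-cycling CD4 cells. In cluster 1 KO-DOX and WT-CTRL were close. The part of makeup in the difference between libraries was not tested. In cluster 14, at 19.1, 8.26, 18.1 and 16.7 CPM, WT-DOX was lowest and KO-DOX was below both controls.

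In cycling CD8 cells 4 of the 8 genes were past the fold between WT-DOX and WT-CTRL, all lower, where 12.6% of 8861 genes passed (8.73% lower). They were Tdp1 at a ratio of 0.552 (0.381 to 0.788), Abcb1a at 0.571 (0.348 to 0.915, from 27 and 59 UMIs), Top2a at 0.713 (0.663 to 0.768) and Top2b at 0.757 (0.645 to 0.887). For Top2a it was WT-CTRL that stood apart, at 773 CPM against 551 to 647 CPM in the other 3 libraries, and for Tdp1 it was WT-DOX. The cycling CD8 cells in the G2/M range were 126 of 156, 87 of 128, 121 of 152 and 123 of 167 in WT-CTRL, WT-DOX, KO-CTRL, then KO-DOX. Within that range Tdp1 was at 44.6, 24.9, 39.0 and 45.1 CPM, Top2a at 870, 677, 700 and 700 CPM, Top2b at 167, 117, 140 and 125 CPM and Abcb1a at 19.9, 12.1, 18.2 and 26.4 CPM, so WT-DOX was the lowest library for each gene there too. Between KO-DOX and KO-CTRL, Abcb1a alone of the 8 passed in cycling CD8 cells (1.51, 1.07 to 2.13), where 6.62% of genes did, and in cycling CD4 cells (1.53, 1.05 to 2.24), where 8.21% did.

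Of the other class comparisons with doxorubicin, Top2a was past the fold in non-cycling CD8 cells between WT-DOX and WT-CTRL (ratio 0.775, 0.625 to 0.959), where 4.94% of genes passed. Top1, Tdp2, Abcb1b and Abcc1 were past the fold in none of the doxorubicin comparisons in T-like cells or in the 4 lineage and cycle classes. None of the 8 passed in cycling CD4 cells between WT-DOX and WT-CTRL, where 11.6% of genes did, or in non-cycling CD8 cells between KO-DOX and KO-CTRL, where 2.98% did. For Top1 in T-like cells the log2 folds were 0.04 between WT-DOX and WT-CTRL and 0.02 between KO-DOX and KO-CTRL. None of the measured genes on the 4 pathway lists was past the fold between WT-DOX and WT-CTRL or between KO-DOX and KO-CTRL in T-like cells. Within the classes some were. Between WT-DOX and WT-CTRL, 3 of 17 repair genes were higher in cycling CD4 cells, Xrcc4 (35.5 against 22.6 CPM), the break-sensing gene Nbn (61.3 against 41.9 CPM) and Brca1 (79.4 against 60.2 CPM), and so was Nqo2 (11.3 against 3.76 CPM). In cycling CD8 cells 3 of 17 repair genes were lower, Mre11a (21.4 against 37.5 CPM), Nbn (22.9 against 38.7 CPM), both of the same break-sensing complex, and the kinase gene Atm (46.3 against 65.2 CPM), while Abcb8 was higher (10.2 against 4.29 CPM). Xdh, the xanthine dehydrogenase gene, was lower in non-cycling CD8 cells (13.4 against 17.5 CPM). Between KO-DOX and KO-CTRL, Aptx (7.09 against 14.5 CPM) and Zfp451 (29.7 against 41.3 CPM) were lower in cycling CD8 cells, and Nbn was lower in non-cycling CD4 cells (31.9 against 41.9 CPM).

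The genotype labels were compared within each treatment, using the same 4 libraries, so these comparisons share libraries with the doxorubicin ones. Between KO-CTRL and WT-CTRL none of the 8 genes was past the fold in T-like cells, where 2.34% of 9053 genes were. Between KO-DOX and WT-DOX 2 were, both higher, where 5.32% of 9020 genes passed (4.2% higher). Top2a had a ratio of 1.58 (1.504 to 1.65), at the levels given above, and the share of cycling cells had a ratio of 1.58 (1.36 to 1.84). In non-cycling cells alone the Top2a log2 fold was 0.18, and with equal class proportions it was 0.14, both short of the size required. Abcb1a was at 39.5, 33.2, 39.6 and 45.6 CPM in the T-like cells of WT-CTRL, WT-DOX, KO-CTRL, then KO-DOX. Its ratio between KO-DOX and WT-DOX was 1.37 (1.28 to 1.48), and its log2 fold was 0.46 in non-cycling cells and 0.49 at equal proportions. By class that ratio was 2.002 (1.62 to 2.48) in non-cycling CD4, 1.74 in cycling CD4 and 2.13 in cycling CD8 cells, where 7.31%, 8.61% and 14.3% of genes passed. In non-cycling CD8 cells it was 1.25 (1.13 to 1.38), short of the size required, and none of the 8 genes passed there, where 3.5% of genes did. Tdp1 passed in cycling CD8 cells as well, at 1.86. On the pathway lists, in T-like cells, Brca1 was higher in KO-DOX than in WT-DOX (12.7 against 9.07 CPM). Brca1 was higher in cycling cells, whose share also differed, and its fold at equal class proportions was not tested. Cbr3, a carbonyl reductase gene, was lower under the knockout label. It was at 3.68 against 6.47 CPM with the control treatment and 4.84 against 6.35 CPM with doxorubicin. Within the lineage and cycle classes, listed genes were also past the fold between genotype labels, and those calls are not named.

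The genes most like each of the 8 were found by Pearson's r of log2(CPM + 1) over 68 sums of a cluster in a library. The sums share libraries, depth and cell cycle makeup, and r is a description. For Top2a they were Pclaf (0.954), Rrm2 (0.948) and Rrm1 (0.943), genes of DNA replication and nucleotide synthesis. For Abcb1a they were Gprin3 (0.807), Traf1 (0.802) and Stat4 (0.769), and for Abcb1b they were Zfpm1 (0.632), Hgsnat (0.609) and Smyd2 (0.606), with no gene in common. Top2b was closest to Arhgap30 (0.787), Zfx (0.759) and Kat6a (0.757), and Top1 to Hdlbp (0.721), Hspa5 (0.720) and St3gal1 (0.715). Tdp1 was closest to Pus10 (0.747), Polr2c (0.732) and Psmd12 (0.731), Tdp2 to Tmem43 (0.707), Fam118a (0.649) and Timeless (0.625), and Abcc1 to Fyn (0.732), Gm20275 (0.695) and Pvt1 (0.686).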

How the data were processed

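Live T cells sorted from tumour-draining lymph nodes were sequenced as 4 droplet libraries, 1 per group. The authors deposited raw UMI counts per gene and barcode for each library, with the build mm10 per the submitters' processing notes. The aligner, the cell calling and the treatment of reads that fit several genes are not stated there or in the labels. Groups came from the labels.

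Cells needed 300 genes or more, with mitochondrial UMIs at 10% or less. Scrublet's automatic threshold marked 0 cells, so the 1036 cells with a score above 0.25 were removed. Cells were clustered in scanpy 1.11.5 (2000 variable genes without the 8, 30 components, 15 neighbours, Leiden resolution 1) into 19 clusters. Clusters with CD3 levels under 1/3 of the cluster median were set aside as not T-like, and clusters were named only from at least 3 markers of a type among their 10 leading genes. A cycling cell had at least 5 cycle genes, and the G2/M range at least 3 G2/M genes. Thinned shares left out cells under 1500 UMIs.

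Counts were summed per library and class. Classes were compared over the 4 libraries with edgeR 4.0.16 (quasi-likelihood, TMM, library as a block, filterByExpr), with Benjamini-Hochberg adjustment over all genes tested and a threshold of 0.05. Each library is of another condition, so these p-values measure the spread of a class difference over conditions. The SE given with an edgeR fold is the size of the log2 fold divided by the square root of its quasi-likelihood F statistic. DESeq2 1.42.0 was an alternative, and the scripts were tested on simulated data. Libraries were compared by CPM without a test: a gene had to have a mean of at least 5 CPM over the 2 libraries, a log2 fold of CPM + 1 of at least 0.32 in size and an exact conditional binomial 95% interval of the ratio without 1. Intervals of levels are exact Poisson at 95% and cover counting error only.

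Coordinates are 1-based from GENCODE M21 for GRCm38. All 8 genes were named, and of each of the 4 pathway lists up to 2 genes per direction with the largest fold past the threshold. An exception was WT-DOX against WT-CTRL in cycling CD4 and in cycling CD8 cells, where all 3 repair genes past the fold were named. Comparisons of genotype labels were another, since listed genes were named there for T-like cells only. No listed gene was named from library comparisons in cycling cells of all lineages. Names and values of 2 listed genes are not reported here. For likeness the 3 genes with the highest r were named, among genes with a mean of at least 10 CPM over sums of at least 50 cells. The 8 genes and the lists were chosen with earlier results of these data known.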

Additional observations from a re-analysis of the deposited data

Results flagged for a closer look

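Abcb1a was flagged because it differed in opposite directions under the 2 genotype labels. The log2 fold of doxorubicin against control was -0.58 for the control genotype and 0.54 for the knockout label in non-cycling CD4 cells, -0.76 and 0.57 in cycling CD8 cells, and -0.46 and 0.42 in all cycling cells. Each fold compares 1 library with 1 library, and the difference between genotype labels was not tested. The share of Tfh-like cells among non-cycling CD4 cells, given in the report, moved with the first of these.

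The cycling effect differed between CD8 and CD4 cells by 0.52 log2 units for Top2a, 0.25 for Top1, -0.75 for Abcb1a and 0.47 for Abcb1b in the test of the difference itself. Depth per cell and the makeup of the non-cycling classes also differ between the lineages, and their part was not tested.

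Cluster 17, set aside as not T-like and used in no comparison, held Top2a at 151 CPM in KO-DOX, from 27 UMIs in 26 cells, above both control libraries. Of the 27 UMIs, 21 came from 1 cell.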

How the results depend on the processing

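Of the single-gene results in class comparisons, 490 kept their side of the threshold under the alternatives. A call was lost in 54 and gained in 15, and 1 that had passed reversed direction. Direction was checked only for genes that passed in the main setting, and others could change sign. The fold of Abcb1b between cycling and non-cycling CD4 cells ran from -0.163 to 0.0957 over the alternatives. In the comparisons of libraries, 372 single-gene values stayed within their counting error and 12 moved. The reversal was Top2b in non-cycling CD8 against CD4 cells, at -0.0175 with library totals in place of TMM. Counts of the 8 genes stayed within 1.5 times in 61 of 70 class and 45 of 48 library alternatives. Between WT-DOX and WT-CTRL the count went from 1 to 0 with equal class proportions. Between KO-DOX and WT-DOX it went from 2 to 1 without cycling cells and to 1 with equal class proportions. For CD8 against CD4 cells outside the cycle it went from 5 to 3 with DESeq2, and in cycling cells from 1 to 3 with library totals only. For the difference of the cycling effect it went from 4 to 1 with cycling called from 3 genes, to 2 with CD4 called from 2 UMIs and CD8 from 1, and to between 1 and 2 when a library was left out. Library totals also moved the higher share of calls for that difference from 78.3% to 67.0%. The cause of these changes was not tested.

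The library was the block, since it pairs the classes of cells sorted and sequenced together. With no replicate block the count for the difference of the cycling effect was 2, and no other count moved by over 1.5 times. All 4 libraries carry the same replicate number, 1 per group, so no paired analysis between groups was possible.

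Leaving out cluster 0, leaving out the cell with the most UMIs of a gene, and calling cycling cells by the cycling-like cluster were chosen after seeing the data. None of these moved a count past 1.5 times. Depth limited the rarer classes most: Abcb1a in cycling CD8 cells of WT-DOX rested on 27 UMIs.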
